A study of Mus musculus with 3 samples.

Results

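The chromatin of 3 mouse loci was described, each named for a transcription factor of neural progenitors: the Pou3f3 locus with its neighbouring long noncoding RNA (lncRNA) Pantr1, the Meis2 locus and the Nfib locus. The data are ChIP-seq region lists, that is, the places where DNA pulled down with an antibody to a histone mark piled up. The loci were taken as fixed windows on the mm9 build: chromosome 1 from 42650000 to 42850000 (Pou3f3 and Pantr1), chromosome 2 from 115650000 to 115950000 (Meis2) and chromosome 4 from 81900000 to 82250000 (Nfib). Every listed region inside them was a member. They held 18 of the 21998 H3K4me3 regions and 6 of the 117512 H3K27me3 regions of the series, or 24 of 139510 in all. The windows were chosen by measured values, namely the width of their widest H3K4me3 region and its lack of H3K27me3, so those widths, that absence and the distances to H3K27me3 are descriptions, and no test was made of them.

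The cells were neurospheres, floating cultures grown from neural stem cells of the subventricular zone, from wild-type (WT) male C57BL/6 mice. The study describes the stem cells as adult, and it asked about the chromatin state of lncRNA promoters in them. Each mark was measured in 1 library, both with antibodies from Millipore, and an input library without antibody was not analysed here. No value below therefore has a replicate error. Neurospheres are mixed cultures, and a region list from such a bulk sample does not separate the cells that carry a mark from those that do not. Positions of genes on mm9 were not used here. The tie between a window and its gene is the one by which the window was chosen, the place of each promoter within its window was not checked, and neither the members nor markers of neural stem cells could be tested gene by gene.

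H3K4me3 is the trimethylation of histone H3 at lysine 4, laid down by SET1 and MLL enzymes at promoters that are active or poised, mostly over CpG-rich DNA. H3K27me3, the trimethylation at lysine 27, is laid down by Polycomb repressive complex 2 and marks genes held silent. Most H3K4me3 regions are short and sit at a promoter, while unusually broad ones tend to cover genes tied to the identity of a cell type. Pou3f3 (also Brn1) encodes a POU-homeodomain transcription factor of neural progenitors and of upper-layer cortical neurons. Pantr1 (also linc-Brn1a) is a lncRNA transcribed beside it. Meis2 encodes a TALE-class homeodomain factor that works with PBX and PAX6 proteins and is active in neuroblasts of the subventricular zone. Nfib encodes a nuclear factor I protein, one of a family of DNA-binding factors that drive the maturation of neural progenitors and gliogenesis.

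In the RefSeq gene order of GRCm38.p6, a later build used here for names and order, Pantr1 and Pou3f3 are separated by the lncRNA gene Gm46091. The lncRNA genes 2900092D14Rik, Pantr2 and Dalir follow on the other side of Pou3f3, so this gene lies in a run of noncoding genes. Meis2 stands between the lncRNA genes Gm31590 and G630016G05Rik. Nfib stands between the lncRNA gene Gm5860 and the transcript 2310067E19Rik. RefSeq promoter sequences were matched for 2 of the 4 genes, Pou3f3 and Meis2. They are shown because CpG-rich DNA is the usual seat of H3K4me3. Each is the 250 bases before the annotated transcription start, 5′ to 3′ on the gene's own strand, with CpG dinucleotides in capitals. Pou3f3 is at chr1:42695518-42695767 on the plus strand and Meis2 at chr2:116064620-116064869 on the minus strand, both on GRCm38.p6, whose positions cannot be set against the mm9 positions given elsewhere.
Pou3f3: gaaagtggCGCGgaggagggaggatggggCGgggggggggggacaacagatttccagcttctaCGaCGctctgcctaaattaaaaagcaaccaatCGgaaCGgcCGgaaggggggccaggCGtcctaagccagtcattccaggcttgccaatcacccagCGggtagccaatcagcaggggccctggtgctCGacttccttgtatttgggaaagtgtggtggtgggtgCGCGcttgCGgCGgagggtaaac
Meis2: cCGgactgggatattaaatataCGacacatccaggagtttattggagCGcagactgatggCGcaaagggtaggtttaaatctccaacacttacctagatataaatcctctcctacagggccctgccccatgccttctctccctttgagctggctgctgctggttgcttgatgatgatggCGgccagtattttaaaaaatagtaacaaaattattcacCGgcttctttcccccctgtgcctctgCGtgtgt

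The Pou3f3 stretch held 15 CpG dinucleotides in 250 bases, at a G+C content of 60.8% and an observed-to-expected CpG ratio of 0.69. Of the 32851 RefSeq promoters in the same table, 27.3% held at least as many, and the median promoter held 6. The Meis2 stretch held 7 CpG dinucleotides, at a G+C content of 47.6% and a ratio of 0.50, and 46.3% of promoters held at least as many. The Pou3f3 start was thus in the CpG-richer part of all promoters and the Meis2 start was near the median. RefSeq lists many Meis2 transcripts, and this table gives 1 promoter for the gene, so other starts of Meis2 are not shown.

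Each window held exactly 1 H3K4me3 region over 10 kb. In the whole list such regions numbered 34 (0.155%), and the median H3K4me3 region was 1987.5 bp wide. The broad region of the Pou3f3 window ran from 42740403 to 42759721 on chromosome 1 and was 19319 bp wide, 9.72 times the median. That of the Meis2 window ran from 115881007 to 115899079 on chromosome 2 and was 18073 bp wide, 9.09 times the median. That of the Nfib window ran from 82142074 to 82159866 on chromosome 4 and was 17793 bp wide, 8.95 times the median. They were 7, 8 and 9 in the order of all H3K4me3 regions by width, and 2, 3 and 4 among the 14635 without H3K27me3. The 10 kb threshold did not decide which regions of these windows counted as broad, because the next widest was 6587 bp. In the whole list the regions on either side of the threshold were 9999 and 10023 bp wide.

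**Figure D1:**
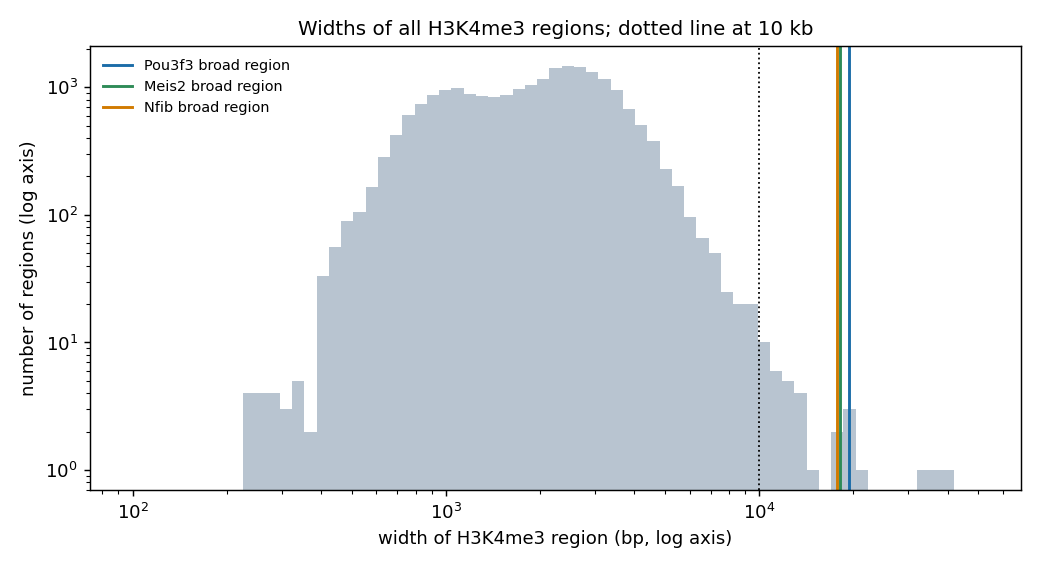
Histogram of the widths of all 21998 H3K4me3 regions (x axis in bp, y axis number of regions, both log axes), with a line for the broad region of each of the 3 windows and a dotted line at 10 kb. The lines lie close together, at 17793, 18073 and 19319 bp, far to the right of the median of 1987.5 bp.

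All 3 broad regions carried the deposited score of 3100, at which the list piles up. This top score (3100 or more) was reached by 52.6% of all H3K4me3 regions and by all 34 over 10 kb, so it does not set the loci apart from each other or from other broad regions. No base of any of the 3 was covered by H3K27me3. Of the 34 regions over 10 kb, 13 (38.2%) overlapped H3K27me3 by at least 1 bp, and 33.5% of all H3K4me3 regions did. The other 21 broad regions, among them these 3, are the set used for comparison below. Nothing is read from the absence at these loci, since they were chosen for it.

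**Figure D2:**
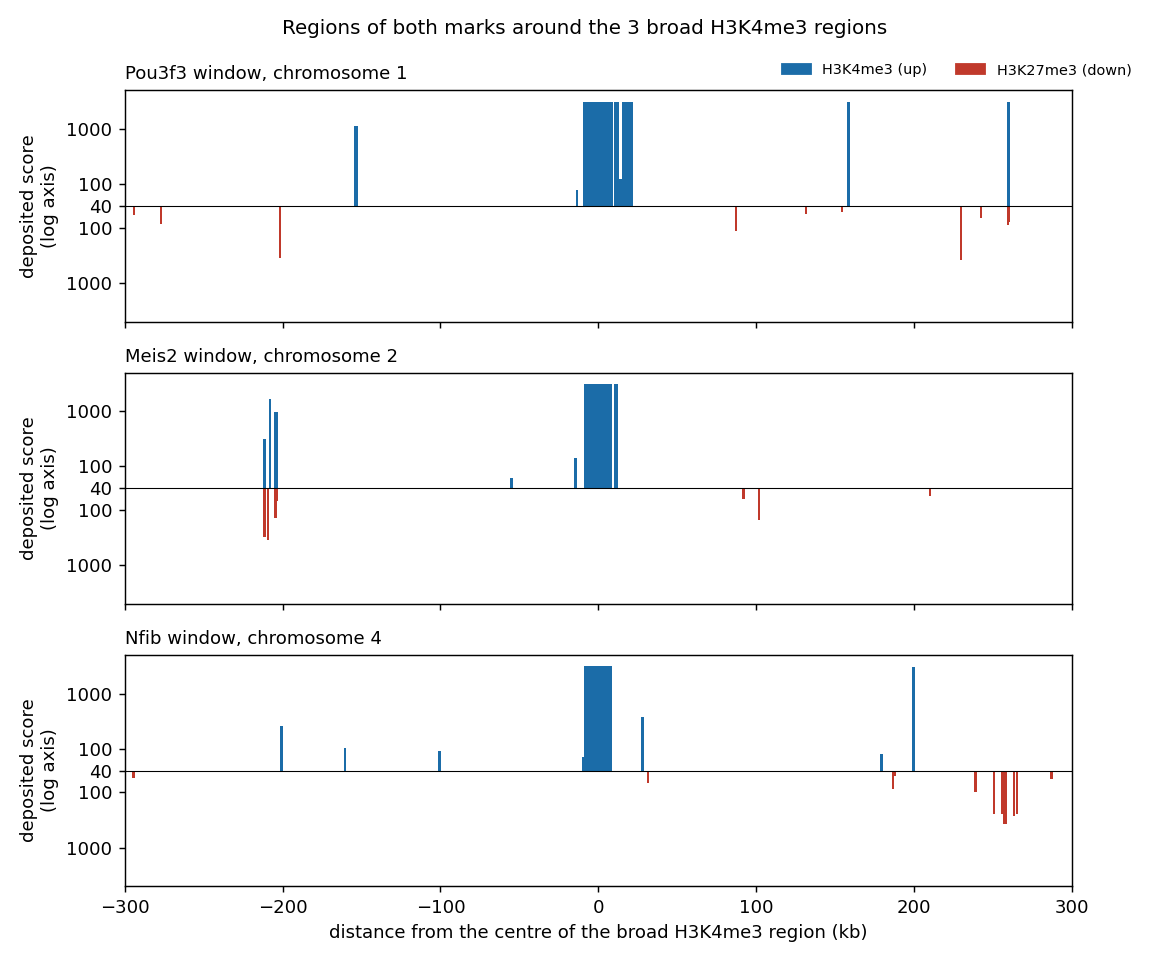
Regions of both marks within 300 kb of the centre of each broad H3K4me3 region (x axis, distance in kb; y axis, deposited score on a log axis, H3K4me3 drawn upwards and H3K27me3 downwards, regions drawn at least 1.5 kb wide; the bars have no true zero). Scores cannot be compared between the marks. Each broad region stands in the middle at 3100, and the H3K27me3 regions nearest to it are thin, low bars, counted from its ends at 191.2 and 77.4 kb (Pou3f3), 194.2 and 82.7 kb (Meis2) and 285.1 and 22.3 kb (Nfib).

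The broad regions differed in what stood directly beside them. At Pou3f3 the broad region was the widest piece of a chain of H3K4me3 regions. On its right, 75 bp away, came a region of 3339 bp at the top score (42759797 to 42763135). After a gap of 193 bp followed a region of 1530 bp with a score of only 124.24 (42763329 to 42764858). After a further 429 bp came a region of 6587 bp, again at the top score (42765288 to 42771874). With the gaps closed, these 4 regions formed a stretch of 31.5 kb, 6 in the order of widths when the whole list is merged over gaps of up to 1 kb. On the left a small region of 1004 bp with a score of 79.25 stood 3354 bp away. Within gaps of up to 5 kb, the chain thus had 5 members over 35.8 kb, of which 88.7% was inside H3K4me3 regions and 53.9% inside the broad one.

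At Meis2 the broad region had 1 close companion. It lay 1054 bp to the right, was 2308 bp wide and was also at the top score (115900134 to 115902441). Together they spanned 21.4 kb, with 84.3% of that inside the broad region. On the left the nearest H3K4me3 region stood 5029 bp away, was 802 bp wide and scored 141.87. It fell just outside the 5 kb limit used for the groups, so the size of the Meis2 group depends on that limit. At Nfib the companion was a sliver on the left, 58 bp away, 805 bp wide and with a score of 71.75 (82141211 to 82142015), while the right side had no H3K4me3 for 17994 bp. The Nfib broad region thus made up 95.4% of its 18.7 kb group. A neighbour within 500 bp was present at Pou3f3 and Nfib and absent at Meis2. Such a neighbour was found for 8.09% of all H3K4me3 regions and for 8 of the 21 broad regions without H3K27me3 (38.1%). Where one region ends and the next begins depends on how regions were called, so the Pou3f3 chain may equally be read as 1 interrupted region.

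**Figure D3:**
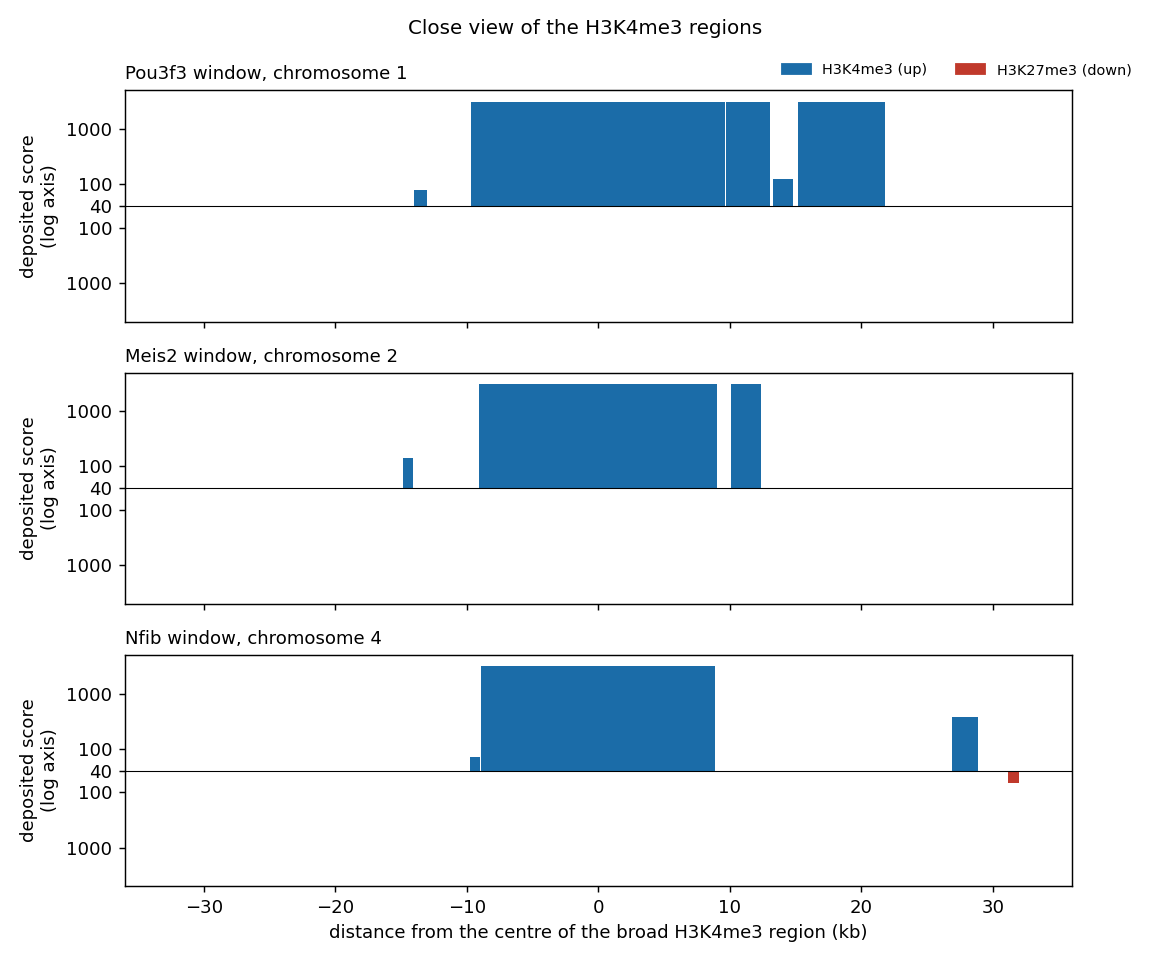
Closer view of the same loci, within 36 kb of the centre of each broad H3K4me3 region (x axis, distance in kb; y axis, deposited score on a log axis, H3K4me3 upwards and H3K27me3 downwards, at true widths). Pou3f3 shows a chain of 5 H3K4me3 regions, Meis2 a broad region with a companion of 2308 bp on the right, and Nfib a broad region with a sliver of 805 bp on the left. The single H3K27me3 region in view is that at Nfib, with a score of 67.68.

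Merging widened the differences between the loci. With gaps of up to 1 kb closed throughout the list, Pou3f3 reached 31.5 kb (6 in the order of widths), Nfib 18.7 kb (14) and Meis2 stayed at 18.1 kb (15). With gaps of up to 3 kb closed, Pou3f3 kept its 31.5 kb (9 in order), Meis2 grew to 21.4 kb (21) and Nfib kept its 18.7 kb (28). The near-equal widths of all 3 loci in the list as deposited therefore hold only for single regions. Nfib and Meis2 stayed close to each other at 1 kb, where only Pou3f3 stood apart. The places in order are lower than in the list as deposited, except for Pou3f3 at 1 kb, since merging also joins regions elsewhere.

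Beyond these groups the next H3K4me3 regions stood at similar distances on each side at Pou3f3, and at very different distances at Meis2 and Nfib. At Pou3f3 the next H3K4me3 region outside the chain was 138.4 kb to the left (2250 bp wide, score 1141.26) and 135.5 kb to the right (2125 bp wide, at the top score). The Pou3f3 chain was therefore the only H3K4me3 in its window. At Meis2 the next region to the right was 816.9 kb away, so that side was empty of H3K4me3 far beyond the window. The left side of Meis2 held 2 small regions, the one of 802 bp and one of 726 bp with a score of 60.66. Farther left, it held a separate group near the edge of the window, described below. At Nfib the right side held a region of 1999 bp with a score of 377.07, 17994 bp from the broad region. Its left side beyond the sliver held 3 small regions, 984 bp wide with a score of 91.59, 765 bp with a score of 104.63 and 1091 bp with a score of 261.16. The nearest of them was 90.3 kb from the sliver.

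Among the 15 H3K4me3 regions of the windows that were not broad, widths ran from 726 to 6587 bp with a median of 1091 bp, and 10 of the 15 were narrower than the median of the whole list. The top score was reached by 3 of the 15, against 52.6% of the whole list. These 3 were the companions at Pou3f3 (3339 and 6587 bp) and at Meis2 (2308 bp). Of the other 12, 7 scored below 254.3, the median of all H3K4me3 regions under the top score. In base pairs the broad region held 60.8% of all H3K4me3 in the Pou3f3 window, 67.8% in the Meis2 window and 75.9% in the Nfib window. H3K4me3 regions covered 15.9%, 8.88% and 6.70% of these windows, against 1.87% of the autosomes. These shares depend on where the windows were drawn.

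H3K27me3 lay on both sides of every locus, at a distance. Left of the Pou3f3 broad region the nearest H3K27me3 region was 191.2 kb away, beyond the window (42547920 to 42549162, score 346.85). On the right it was 77.4 kb away (42837127 to 42837789, score 113.58). Left of the Meis2 broad region it was 194.2 kb away (115685964 to 115686757, score 66.99), and on the right 82.7 kb away (115981820 to 115982251, score 62.88). The distances at Pou3f3 and Meis2 were close to each other on each side. At Nfib the sides differed most. The nearest H3K27me3 region was 285.1 kb away on the left (81856226 to 81856936, score 54.26) but 22.3 kb away on the right (82182157 to 82182982, score 67.68). The farther side was 2.47 times as far as the nearer one at Pou3f3, 2.35 times at Meis2 and 12.8 times at Nfib.

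The nearer side of Nfib rested on 1 region of 826 bp with a low score. The median score of all H3K27me3 regions was 112.1, and among H3K27me3 regions scoring at least 100 the nearest on that side was 241.3 kb away. Measured from the end of the whole group instead of the broad region, the distances on the right became 65.3 kb at Pou3f3, 79.4 kb at Meis2 and 22.3 kb at Nfib. The stretch free of H3K27me3 around each broad region, the region included, was 288.0 kb at Pou3f3, 295.1 kb at Meis2 and 325.2 kb at Nfib. In the list as deposited the 3 stretches were thus of like length, and the broad region of Nfib sat near one edge of its own. Neither held for Nfib in the upper 50% of H3K27me3 regions by score. There its stretch was 713.1 kb, against 288.0 kb at Pou3f3 and 305.5 kb at Meis2, and its farther side was 1.88 times as far as the nearer one, against 2.47 and 2.12 times.

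Among the 21 broad regions without H3K27me3, the free stretch had a median of 58.8 kb. The 3 loci were 6 (Pou3f3), 5 (Meis2) and 4 (Nfib) in order of its length. By the distance on the nearer side they were 6, 5 and 8, where the median of the set was 14.4 kb. Of all H3K4me3 regions without H3K27me3, 10.7% lay farther from H3K27me3 on their nearer side than Pou3f3 did, 9.55% farther than Meis2 and 39.5% farther than Nfib, so the nearer distance of Nfib was an ordinary one. By the distance on the farther side they were 6, 5 and 3, with a median of 27.9 kb. Longer free stretches were found around 10.8% (Pou3f3), 10.3% (Meis2) and 8.19% (Nfib) of all H3K4me3 regions without H3K27me3, whose median stretch was 88.4 kb. A free stretch of this length was therefore uncommon but not restricted to these loci, nor to broad regions. No H3K27me3 lay within 20 kb of any of the 3, which was true of 8 of the 21 (38.1%). It was true of 6161 of all 21998 H3K4me3 regions (28%), those overlapping H3K27me3 included. All 6161 are among the 14635 without H3K27me3, which is the set like the 21. The shares of 38.1% and 28% are therefore not of like sets.

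**Figure D4:**
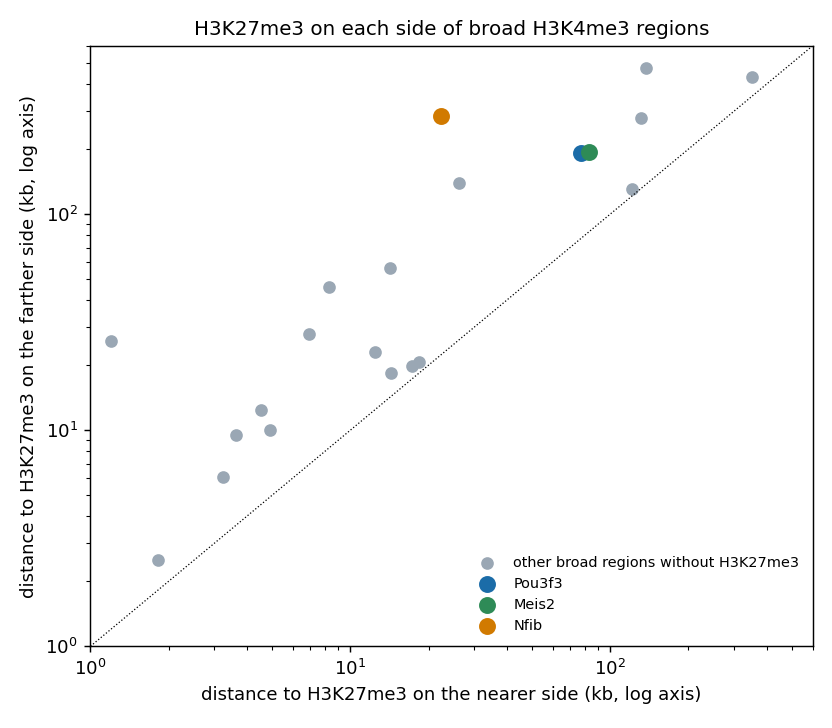
Distance to the nearest H3K27me3 region on the nearer side (x axis) and on the farther side (y axis), in kb on log axes, for the 21 H3K4me3 regions over 10 kb without H3K27me3. Each point is 1 region and the dotted line marks equal distances. Pou3f3 (77.4 and 191.2 kb) and Meis2 (82.7 and 194.2 kb) nearly coincide, and Nfib (22.3 and 285.1 kb) lies far above the line.

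The cover by H3K27me3 around the loci was at most 2.75% in each of 6 distance ranges up to 200 kb. At Pou3f3 and Meis2 it was 0 within 50 kb of the broad region, then 0.663% and 1.55% of base pairs between 50 and 100 kb, and 1.27% and 0.877% between 100 and 200 kb. At Nfib it was 0 in the first 10 kb, then 2.75% between 10 and 25 kb, all of it the single region named above. It was 0 from 25 to 100 kb and 0.576% between 100 and 200 kb. Over all 21 broad regions without H3K27me3 the mean cover was 2.90% in the nearest 5 kb, 13.6% between 25 and 50 kb and 9.49% between 100 and 200 kb. The median cover of the set was lower. It was 0 in the first 10 kb, as at the 3 loci, and 2.75% between 10 and 25 kb, where Nfib itself was the median. It was 6.14% between 25 and 50 kb, 1.71% between 50 and 100 kb, close to the 1.55% of Meis2, and 6.07% between 100 and 200 kb. All 3 loci were thus below the median of the set beyond 25 kb, and Pou3f3 and Meis2 also between 10 and 25 kb. Among all H3K4me3 regions without H3K27me3 the median between 10 and 25 kb was 1.86%, below the value of Nfib.

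**Figure D5:**
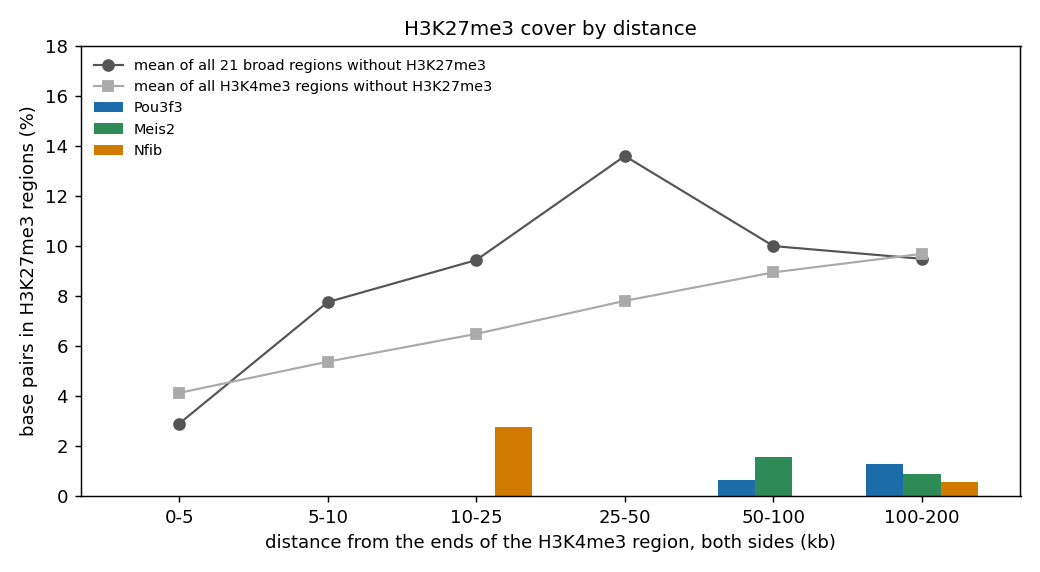
Percentage of base pairs in H3K27me3 regions (y axis) by distance from the ends of the broad H3K4me3 region, both sides joined (x axis, kb). Bars are the 3 loci, and lines are the means of the 21 broad regions and of all 14635 H3K4me3 regions without H3K27me3. The bars reach 2.75% at most (Nfib, 10 to 25 kb), while the mean of the broad regions peaks at 13.6% (25 to 50 kb).

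H3K27me3 regions were also counted over a wider neighbourhood. It includes the free stretches described above, so low counts follow in part from the choice of the loci. Within 1 Mb of the ends of the broad region lay 29 H3K27me3 regions at Pou3f3, 24 at Meis2 and 31 at Nfib. The median was 152 for the 21 broad regions without H3K27me3, all on autosomes. It was 131 for all 21098 autosomal H3K4me3 regions, those that overlap H3K27me3 included. Fewer were found around 9.50% (Pou3f3), 6.21% (Meis2) and 10.5% (Nfib) of autosomal H3K4me3 regions. None of the 3 neighbourhoods held an H3K27me3 region at the top score, a score reached by 2.55% of H3K27me3 regions. The median number was itself low, 1 around the 21 broad regions and 2 around all autosomal H3K4me3 regions. H3K4me3 regions within 1 Mb, the broad one included, numbered 20 at Pou3f3, 11 at Meis2 and 19 at Nfib, against a median of 22 around the 21 broad regions and of 25 around all autosomal H3K4me3 regions. Pou3f3 and Nfib were close to the first of these medians. Fewer were found around 34.0% (Pou3f3), 9.80% (Meis2) and 31.1% (Nfib) of autosomal H3K4me3 regions. Of the 3 loci, Meis2 had the fewest regions of both marks within 1 Mb.

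Distances to long H3K27me3 domains were also taken. Such domains are runs of H3K27me3 regions with no gap above 3 kb between them that reach 10 kb or more in all. Being made of these regions, the nearest domain can be no closer than the nearest region. The nearest was 4047.6 kb from the Pou3f3 broad region, 1145.2 kb from that of Meis2 and 2118.8 kb from that of Nfib. The median distance was 211.7 kb for the 21 broad regions and 152.9 kb for all autosomal H3K4me3 regions. All 3 loci had no such domain within 1 Mb, as had 8 of the 21 (38.1%) and 20.6% of autosomal H3K4me3 regions. The shares and the medians are of unlike sets, since the autosomal set includes regions that overlap H3K27me3 and the 21 have none. By the distance to the nearest domain, Pou3f3 was 2, Nfib 4 and Meis2 8 among the 21.

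The marks overlapped in 1 place only within the windows, at the left end of the Meis2 window. Its H3K27me3 regions lay 194.2 kb or more from the Meis2 broad region. There, 3 H3K4me3 regions and 4 H3K27me3 regions lay within a few kilobases of each other. The first H3K4me3 region (115678117 to 115679103, 987 bp, score 308.74) was wholly inside an H3K27me3 region of 1174 bp. The second (115681531 to 115682697, 1167 bp, score 1693.34) had no H3K27me3 on it, although an H3K27me3 region of 870 bp and score 354.31 ended a short way to its left. The third (115684407 to 115686980, 2574 bp, score 956.48) was covered over 61.4% of its length by 2 H3K27me3 regions of 786 and 794 bp. Regions with both marks and a region with H3K4me3 alone thus alternated within the group. The marks also came near each other, without overlap, right of the Nfib broad region. There the H3K27me3 region (82182157 to 82182982) followed shortly after the H3K4me3 region of 1999 bp (82177861 to 82179859).

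Over all 3 windows, 2 of the 18 H3K4me3 regions overlapped H3K27me3, or 11.1%, beside 33.5% of the list. The 3 broad regions among the 18 were chosen for having none, so the count over the others was 2 of 15. Nothing is read from either share. Neither overlapping region was at the top score, and the windows of Pou3f3 and Nfib held none. Of the 6 H3K27me3 regions in the windows, 3 touched H3K4me3, all in the Meis2 group, against 7.08% of the list. Their widths ran from 663 to 1174 bp. H3K27me3 covered 0.331% of the Pou3f3 window, 1.21% of the Meis2 window and 0.236% of the Nfib window, against 6.01% of the autosomes. Because the windows were drawn around regions free of H3K27me3, these low shares follow in part from that choice. Sequencing depth is not known here, and the absence of a region says that none was called, not that the mark was absent.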

How the data were processed

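Chromatin immunoprecipitation followed by sequencing was measured in neurospheres with 1 library per mark. For each mark the authors deposited region coordinates and 1 score per region, of unstated scale. Names of the form that MACS writes stand beside them, per the file contents. The submitters' processing notes name Bowtie 1.1.2 and the build mm9. How MACS was run (version, threshold, read filter, control) is not given in the sources used here. Depth is unknown.

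Groups follow the antibody in the labels. Regions inside the 3 windows were taken with positions counted from 1, and none of the numbered regions between the first and last in a window was missing. Overlap meant at least 1 bp. Distances are the base pairs between facing ends. Comparison sets were all H3K4me3 regions and the 21 over 10 kb without H3K27me3. No test was made: the members, the comparison sets and the lists were chosen with earlier results of these data known. The genes named are those of the windows, and every region over 10 kb in them is described in full. The planned lists of related genes and cell type markers were not used, for want of gene positions on mm9. The counts within 1 Mb and the merged ranks were added after the data were seen. Promoter sequences and gene order are from RefSeq, GRCm38.p6.

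The tools were bedtools 2.31.1, matplotlib 3.10.9, pandas 2.3.3, NumPy 2.4.6 and SciPy 1.17.1 under Python 3.11.15. The overlap count differed from that of bedtools by 0. Covered base pairs were tested on 300 simulated regions and differed from a base-by-base count in 0.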

Additional observations from a re-analysis of the deposited data

How the results depend on the processing

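The count of broad regions was 3 also at a threshold of 15 kb, with H3K4me3 regions merged and in widened windows, and 4 at a threshold of 5 kb. A value of distance or cover was counted as moved when it changed by more than 1.5 times, and 20 of 46 alternative values moved. The distances depend on which H3K27me3 regions count. With the upper 50% of H3K27me3 regions by score, or those scoring at least 100 (chosen after seeing the data), Nfib moved to 454.0 kb on the left and 241.3 kb on the right, while Pou3f3 and Meis2 stayed within the limit. With top-scoring H3K27me3 regions only, the distances were 1999.6 and 14272.3 kb (left and right) at Pou3f3, 2039.8 and 1158.9 kb at Meis2, and 17354.4 and 2118.8 kb at Nfib. With domains of 10 kb or more only, they were 4047.6 and 11740.5 kb at Pou3f3, 3820.5 and 1145.2 kb at Meis2, and 18895.0 and 2118.8 kb at Nfib. These follow from keeping fewer regions. Among the 6 top-scoring H3K4me3 regions of the windows, the share with H3K27me3 was 0%. In windows widened by 100 kb on both sides, H3K27me3 covered 0.763% at Nfib, and H3K4me3 covered 9.04% at Pou3f3 and 5.33% at Meis2. These H3K4me3 shares fell because the added flanks held less H3K4me3 than the windows drawn around the broad regions. No paired analysis was possible because there is a single library for each antibody. With no replicate and no known depth, neither a width nor a missing region can be set against an error.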
